A study of Daphnia magna with 144 samples.

Results

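The pyrethroids of the series are Bifenthrin, Lamda Cyhalothrin and Permethrin, chosen by the chemical named in the labels. They are 3 of the 36 chemicals of the series, each with 4 arrays, and so have 12 arrays in all. Every array measured RNA of whole Daphnia magna, a freshwater water flea, by 1-colour hybridisation with Cy3. Per the labels, a replicate was 20 animals aged 14 days that spent 24 h in 1 L of COMBO medium, an artificial pond water, with a chemical at 1/10 of its LC50 (a concentration that kills the median animal of a test). Bifenthrin at 0.0001 mg/L and Lamda Cyhalothrin at 0.0006 mg/L belonged to the Ethanol control, and Permethrin at 0.00041 mg/L to the DMSO control. The concentrations thus matched as a fraction of the LC50 and differed in mg/L. A further 13 chemicals belonged to Ethanol, and Phenanthrene at 0.366 mg/L was the other chemical of the DMSO control.

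Pyrethroids are synthetic relatives of the pyrethrins of chrysanthemum flowers. They hold voltage-gated sodium channels of nerve cells open for too long, and arthropods, crustaceans among them, are far more sensitive to them than mammals. Each molecule joins an acid part to an alcohol part through an ester bond. Lamda Cyhalothrin carries a cyano group on its alcohol part, which makes it a type II pyrethroid, whereas Bifenthrin and Permethrin lack this group and count as type I. Bifenthrin and Lamda Cyhalothrin have the same chlorinated and fluorinated side chain on the acid part, where Permethrin has a dichlorovinyl group. Lamda Cyhalothrin and Permethrin share a phenoxybenzyl alcohol part, and Bifenthrin has a biphenyl in its place.

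The probes are known by an identifier alone. The tables used here pair no probe with a gene or a sequence, so probes are named by identifier and no function can be given to them. The deposited value of an array is a log2 ratio to a reference of its vehicle, for 13481 probes. The scanner tables hold intensities, from which log2 values free of any control were made for 14276 probes. The median foreground of the 12 pyrethroid arrays was between 69 and 93 against a local background of 35 to 38. Between 62.4% and 88.8% of the probes were above background, defined by negative control spots, and 1 to 14 probes per array were saturated. Replicate arrays correlated at 0.976 to 0.989. Permethrin replicate 2 had 62.4% of its probes above background, against 74.2% to 75.5% on the other 3 Permethrin arrays. No slide or hybridisation day is given, so the exposure of 4 animal pools and the handling of their arrays cannot be told apart. In whole animals, fewer cells of a type and less RNA per cell cannot be told apart either.

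The first question was how far each compound moved expression from its vehicle. A probe was called where the adjusted p of the limma fit was under 0.05 and the change was at least 1 on the log2 scale. Bifenthrin moved 1225 of the 13481 probes past this limit (9.09%), with 323 higher (2.4%) and 902 lower (6.69%). Lamda Cyhalothrin moved 1568 (11.6%), with 627 higher (4.65%) and 941 lower (6.98%). Permethrin moved 3613 (26.8%), with 1785 higher (13.2%) and 1828 lower (13.6%). Permethrin therefore had more called probes than the Ethanol pyrethroids together, and the Ethanol pyrethroids had more lower than higher calls. Ordered from the fewest calls, Bifenthrin stood at rank 6, Lamda Cyhalothrin at rank 11 and Permethrin at rank 30 of the 36 chemicals. Phenanthrene, set against the same reference as Permethrin, had 978 calls (7.25%), with 411 higher (3.05%) and 567 lower (4.21%). The SD of the log2 ratios over the probes of an array was 0.69 to 0.72 for Bifenthrin, 0.76 to 0.79 for Lamda Cyhalothrin and 1.35 on every Permethrin array. The spread of the control arrays is not in these tests, so their p-values are too small. Both the order of the counts and the split by direction depended on the scale. With the ratios quantile normalized over all arrays, which sets the spread of every array equal, the counts were 2360 for Bifenthrin, 2396 for Lamda Cyhalothrin and 2367 for Permethrin. Then 52.0% of the Bifenthrin calls and 51.6% of the Lamda Cyhalothrin calls were higher, against the 323 of 1225 and 627 of 1568 on the deposited scale.

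A second test used no control. It set the scanner log2 values of each compound against other chemicals in the same vehicle, called vehicle mates here: the mean of 13 chemicals for the Ethanol compounds, and Phenanthrene for Permethrin. Of 14276 probes, 543 were called for Bifenthrin (3.8%), 788 for Lamda Cyhalothrin (5.52%) and 3710 for Permethrin (26.0%). Permethrin had the highest count of the 3 compounds, with 1604 probes higher and 2106 lower than in Phenanthrene. The shares were 11.2% and 14.8%. Changes made by Phenanthrene itself enter the Permethrin count, whereas a mean of 13 chemicals dilutes those of any 1 mate. The Permethrin count is therefore not on equal terms with the other 2. Bifenthrin had 218 higher (1.53%) and 325 lower (2.28%), and Lamda Cyhalothrin 365 higher (2.56%) and 423 lower (2.96%). With normexp background correction the counts were 136, 274 and 1671, in the same order of compounds.

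**Figure D1:**
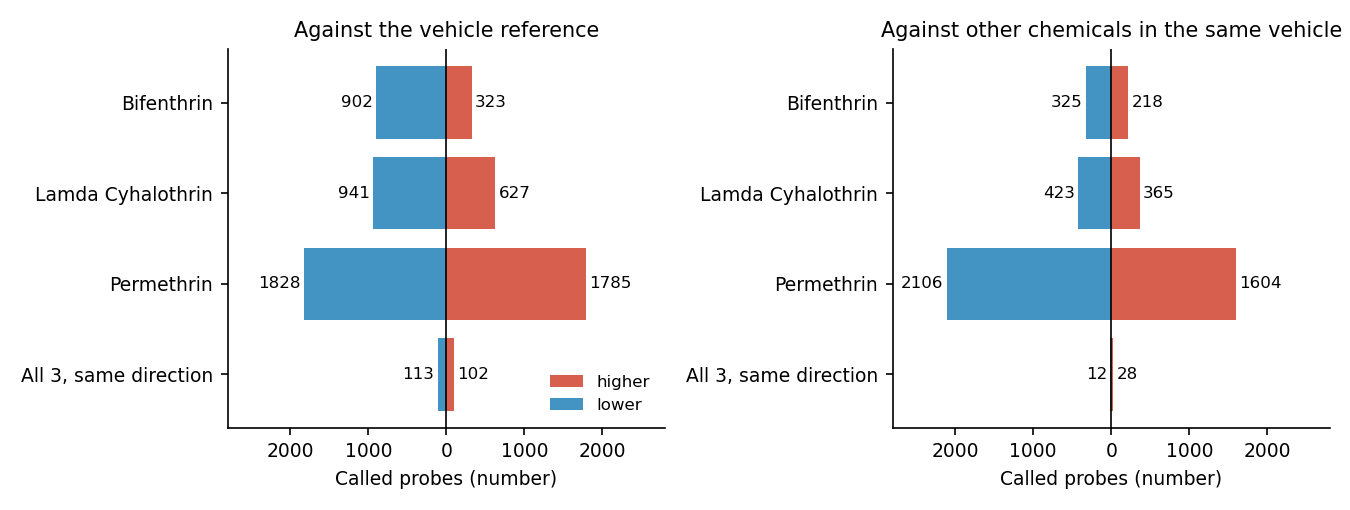
Number of probes called higher (right of 0) and lower (left of 0) for each pyrethroid and for all 3 in the same direction, against the vehicle reference (left panel, 13481 probes) and against other chemicals in the same vehicle (right panel, 14276 probes). Permethrin had the longest bars in both panels, and 215 and 40 probes were shared by all 3. In the right panel Permethrin was set against 1 chemical and the other compounds against the mean of 13.

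The next question was which changes the 3 compounds shared. Against the vehicle, 215 probes (1.59%) were called in the same direction in all 3, with 102 higher (0.757%) and 113 lower (0.838%). Of these probes, 135 were above background on all 12 arrays, a share of 62.8%, close to the 60.6% of all probes in the table. The 102 higher probes had a median log2 ratio of 1.42 in Bifenthrin, 1.95 in Lamda Cyhalothrin and 3.20 in Permethrin. The median over all probes was -0.02 in Bifenthrin and -0.00 in the others. By array, the median of the 102 probes lay between 1.40 and 1.43 in Bifenthrin, between 1.92 and 2.03 in Lamda Cyhalothrin and between 3.17 and 3.24 in Permethrin, so the compounds did not overlap. The 113 lower probes had medians of -1.46, -1.73 and -1.62 in the same order, and the array medians of Lamda Cyhalothrin and Permethrin overlapped. The size was at least 2 on the log2 scale in all 3 compounds for 14 of the higher and 2 of the lower probes. Permethrin had the largest ratio at 76 of the 102 higher probes. It was called above Bifenthrin at 63 of them and above Lamda Cyhalothrin at 53, against 18.1% and 16.4% of all probes. No pair of compounds was called different at 27. Among the 113 lower probes, no pair was called different at 85. The share of all probes with no pair called different is not given here, so these 2 counts have no background. The sizes and counts of the shared list describe probes that the same ratios had chosen.

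Among the higher probes above background on all 12 arrays, DM07209 had the largest ratio in the compound where it rose least. Its log2 ratios were 3.22, 3.25, 3.16 and 3.24 on the Bifenthrin arrays (3.22 ± 0.04, SD, n = 4). They were 4.97, 5.07, 5.12 and 5.15 in Lamda Cyhalothrin (5.08 ± 0.08) and 7.31, 7.28, 7.27 and 7.31 in Permethrin (7.29 ± 0.02). The 3 compounds did not overlap, and their means correspond to 9.3-fold, 33.8-fold and 157-fold increases. The limma adjusted p against the vehicle was 1.5e-44, 7.1e-64 and 2.9e-81. DM07209 was also above the vehicle mates in each compound, by 1.28, 3.18 and 5.75 on the log2 scale. It was called higher in 8 of the 13 other Ethanol chemicals as well, with a mean scanner value of 11.48 in Dichlorobenzene beside 11.33 in Lamda Cyhalothrin.

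DM04829 rose in the same order. Its ratios were 2.46, 2.49, 2.52 and 2.51 in Bifenthrin (2.49 ± 0.03), and 3.18, 3.14, 3.03 and 3.09 in Lamda Cyhalothrin (3.11 ± 0.07). In Permethrin they were 5.23, 5.23, 5.19 and 5.27 (5.23 ± 0.03). The adjusted p-values of limma were 5.5e-23, 5.5e-30 and 1.6e-50. Phenanthrene, at 2.40 ± 0.01 against the same DMSO reference, lay below Permethrin and beside Bifenthrin. DM04829 was called higher in 8 and lower in 2 of the 13 other Ethanol chemicals. Its scanner value was 12.28 in Dichlorobenzene, beside 11.04 in Lamda Cyhalothrin and 12.52 in Permethrin.

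DM11495 fell on every array of the 3 compounds. The ratios were -8.66, -8.60, -8.56 and -8.70 in Bifenthrin (-8.63 ± 0.06), and -8.32, -8.30, -8.13 and -8.25 in Lamda Cyhalothrin (-8.25 ± 0.08). Permethrin gave -8.38, -8.42, -8.35 and -8.24 (-8.35 ± 0.08), so the compounds spanned less than 1 log2 unit. The adjusted p against the vehicle was 4.5e-56, 1e-54 and 1.6e-56. On ratios no pair was called different, and the difference of Bifenthrin from Lamda Cyhalothrin was -0.38 with a 95% interval from -1.11 to 0.34. On scanner values Permethrin was called above Bifenthrin at DM11495, by 1.12 (limma adjusted p = 7.9e-06). DM11495 also fell in Phenanthrene, to -9.24 ± 0.04, and was called lower in 12 of the 13 other Ethanol chemicals. Against Phenanthrene, Permethrin was 0.81 higher. DM05269 had ratios of -6.59 ± 0.03, -6.78 ± 0.13 and -6.98 ± 0.17 in Bifenthrin, Lamda Cyhalothrin and Permethrin, with adjusted p-values of 1.9e-19, 1.9e-20 and 6.3e-22. It too was called lower in 12 of the 13 other Ethanol chemicals, and Phenanthrene stood at -6.63 ± 0.19.

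Set against vehicle mates, 40 probes (0.28%) were called the same way in all 3 compounds, with 28 higher (0.196%) and 12 lower (0.0841%). With normexp background correction 9 were called, 8 higher and 1 lower. Of the 102 probes higher than the vehicle in all 3, 14 were among the 28, and of the 113 lower probes, 7 were among the 12. Taken 1 compound at a time, the 102 higher probes were called above the mates at 25 probes in Bifenthrin, 52 in Lamda Cyhalothrin and 70 in Permethrin. Of all probes, 1.53%, 2.56% and 11.2% were. The 113 lower probes were called below the mates at 31, 50 and 56, against 2.28%, 2.96% and 14.8% of all probes. Both sets had been chosen as high or low on the same arrays. Conversely, 20 of the 28 probes higher than the mates were higher than the vehicle in Bifenthrin, 20 in Lamda Cyhalothrin and 18 in Permethrin. Each compound had at most 1 of the 28 lower. Of all probes, 2.4%, 4.65% and 13.2% were higher than the vehicle. The 28 had been chosen as high on these same pyrethroid arrays, so this overlap is no separate support. The median ratio of the 28 to the vehicle was 1.45, 1.85 and 2.45. In Phenanthrene the median of the 28 was -0.26, with 9 called higher (3.05% of all probes were) and 9 called lower (4.21%). At some of these probes Phenanthrene, the mate of Permethrin, thus lay below the DMSO reference.

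At DM09287 the ratios were 3.94, 3.97, 3.98 and 4.0 in Bifenthrin (3.97 ± 0.02), and 4.12, 4.18, 3.89 and 3.90 in Lamda Cyhalothrin (4.02 ± 0.15). Permethrin gave 1.14, 1.25, 1.2 and 1.18 (1.19 ± 0.05), and Phenanthrene -1.25 ± 0.04. The Ethanol compounds overlapped and differed by -0.05 (95% interval -0.31 to 0.22). The difference from the vehicle mates was 3.66 in Bifenthrin, 3.73 in Lamda Cyhalothrin and 2.16 in Permethrin, with adjusted p-values of 9.5e-59, 7.9e-60 and 7.9e-28. DM09287 reached a scanner log2 value of 14.01 in Bifenthrin and 14.08 in Lamda Cyhalothrin, and the 13 other Ethanol chemicals had means from 7.89 in Dichlorobenzene to 13.23 in Methoxychlor. Both Ethanol pyrethroids thus lay above every other chemical of their vehicle at this probe, and Permethrin, at 10.95, lay near the middle of that range. DM09287 and the other probes named from this list had been chosen by their differences from the mates. Their differences and p-values against the mates describe that choice and are no separate support.

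DM05878 was higher by 5.08 ± 0.03 in Bifenthrin, from 5.05 to 5.12 over the arrays. It was higher by 7.81 ± 0.10 in Lamda Cyhalothrin, from 7.67 to 7.91, and by 1.30 ± 0.13 in Permethrin, from 1.11 to 1.41. The 3 compounds did not overlap. The adjusted p against the vehicle was 2.3e-52, 1e-70 and 9.4e-12, and against the mates the differences were 3.26, 6.0 and 1.64. DM05878 was called higher in 8 of the 13 other Ethanol chemicals as well, with a scanner value of 10.42 in Methoxychlor beside 10.28 in Bifenthrin. Phenanthrene stood at -0.47 ± 0.11 with 3 of 4 arrays above background. Its scanner value was a dim 4.48, and that of Permethrin was 6.12. The background correction also mattered here: with normexp in place of subtraction, the Permethrin difference from Phenanthrene was 0.69 and was no longer called.

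The lower probes of this list moved less. DM12209 had ratios of -1.89, -2.01, -2.08 and -2.04 in Bifenthrin (-2.01 ± 0.08), and -1.90, -1.88, -1.86 and -1.77 in Lamda Cyhalothrin (-1.85 ± 0.06). Permethrin gave -1.92, -2.18, -2.05 and -2.07 (-2.05 ± 0.11), and Phenanthrene -0.82 ± 0.08. The Bifenthrin arrays overlapped with those of both others, Lamda Cyhalothrin and Permethrin did not overlap, and all lay below Phenanthrene. The adjusted p against the vehicle was 7.7e-19, 3.2e-17 and 2.1e-20. DM12209 was below the mates by 1.39, 1.21 and 1.42 on the log2 scale in the same order, and with normexp by 0.83, 0.75 and 0.90, short of the minimum change. It was called lower in 5 of the 13 other Ethanol chemicals, with a scanner value of 4.45 in Dichlorobenzene beside 5.31 in Bifenthrin. DM07751 had ratios of -0.91 ± 0.04, -0.60 ± 0.04 and -0.78 ± 0.04 and was not called against the vehicle in any of the 3. Against the mates it differed by -1.43, -1.13 and -1.17, with adjusted p-values of 9e-08, 1.2e-05 and 0.0005. With deposited ratios in place of scanner values, the Permethrin difference of DM07751 was -0.97, just under the minimum change.

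**Figure D2:**
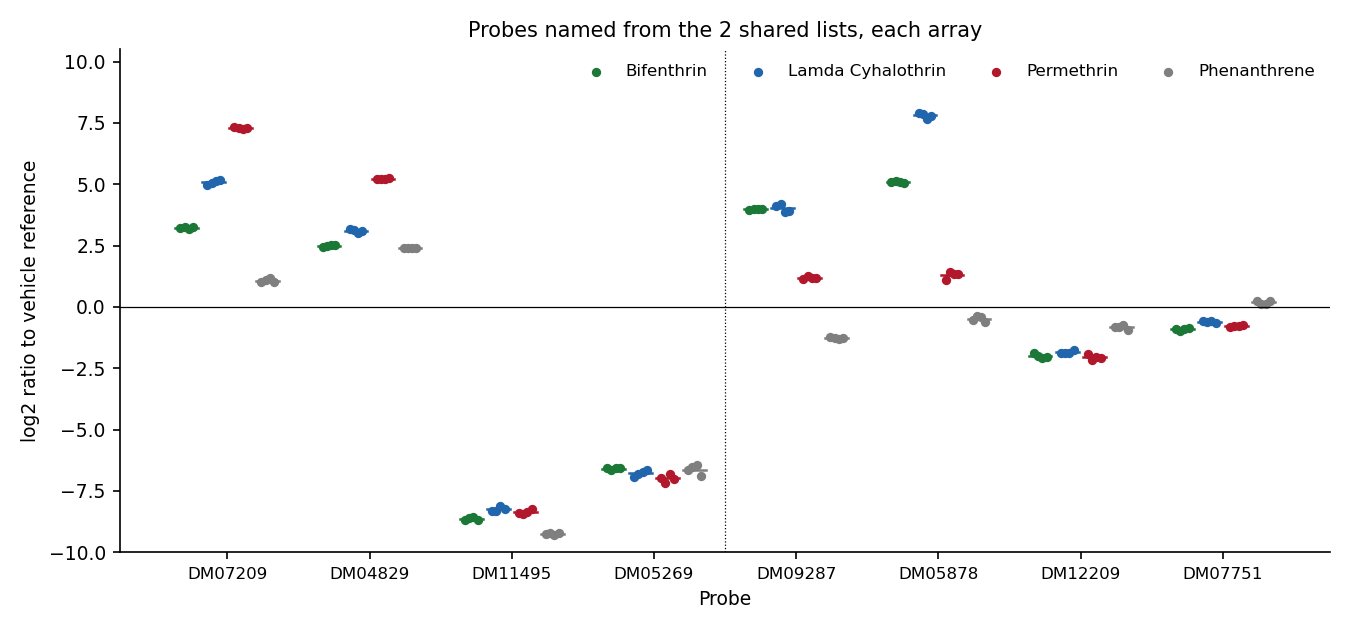
log2 ratio to the vehicle reference on each array (points) with the mean of 4 arrays (lines) for the probes named from the list shared against the vehicle (left of the dotted line) and from the list shared against vehicle mates (right). At DM07209 the ratios increase from Bifenthrin over Lamda Cyhalothrin to Permethrin, and at DM11495 and DM05269 Phenanthrene (grey) is as low as the pyrethroids.

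Whether the Ethanol pyrethroids resembled Permethrin more than other chemicals did was read from comparisons with different references. Of the 323 probes higher in Bifenthrin, 130 (40.2%) were higher in Permethrin and 26 (8.05%) were lower. Of all probes, 13.2% were higher in Permethrin and 13.6% lower. Of the 902 probes lower in Bifenthrin, 16% were lower in Permethrin and 14.6%, or 132 probes, were higher. Both shares lay near those of all probes. Of the 627 probes higher in Lamda Cyhalothrin, 305 (48.6%) were higher in Permethrin and 27 (4.31%) lower. Of its 941 lower probes, 288 (30.6%) were lower in Permethrin and 137 (14.6%) higher. Read from the other side, the 130 and 305 shared higher probes were 7.28% and 17.1% of the 1785 higher probes of Permethrin. Of all probes, 2.4% were higher in Bifenthrin and 4.65% in Lamda Cyhalothrin. The shared lower probes were 7.88% and 15.8% of the 1828 lower probes of Permethrin, against 6.69% and 6.98% of all probes.

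Shares of the same size were found for chemicals of other classes. Over the 13 other Ethanol chemicals, the share of higher probes that were also higher in Permethrin went from 18.3% for Methoxychlor to 60.6% for Dichlorobenzene, with a median of 38.6%. For lower probes it went from 8.68% for Nonylphenol to 43.2% for Dichlorobenzene, with a median of 15%. Among the 15 Ethanol chemicals, Lamda Cyhalothrin stood at rank 4 for the higher and rank 3 for the lower share, and Bifenthrin at ranks 7 and 8. Across the 13481 probes, which are not independent replicates, the mean ratios of Permethrin correlated with those of Bifenthrin at 0.09, of Lamda Cyhalothrin at 0.31 and of Dichlorobenzene at 0.57. The ratios of Phenanthrene correlated with those of Bifenthrin at 0.31 and of Lamda Cyhalothrin at 0.09, the opposite order. Differences from vehicle mates gave a correlation with Permethrin of -0.31 for Bifenthrin and 0.18 for Lamda Cyhalothrin. For Permethrin this difference is Permethrin minus Phenanthrene, so the values of Phenanthrene enter both correlations. Neither can be read as likeness or opposition of the pyrethroids alone.

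**Figure D3:**
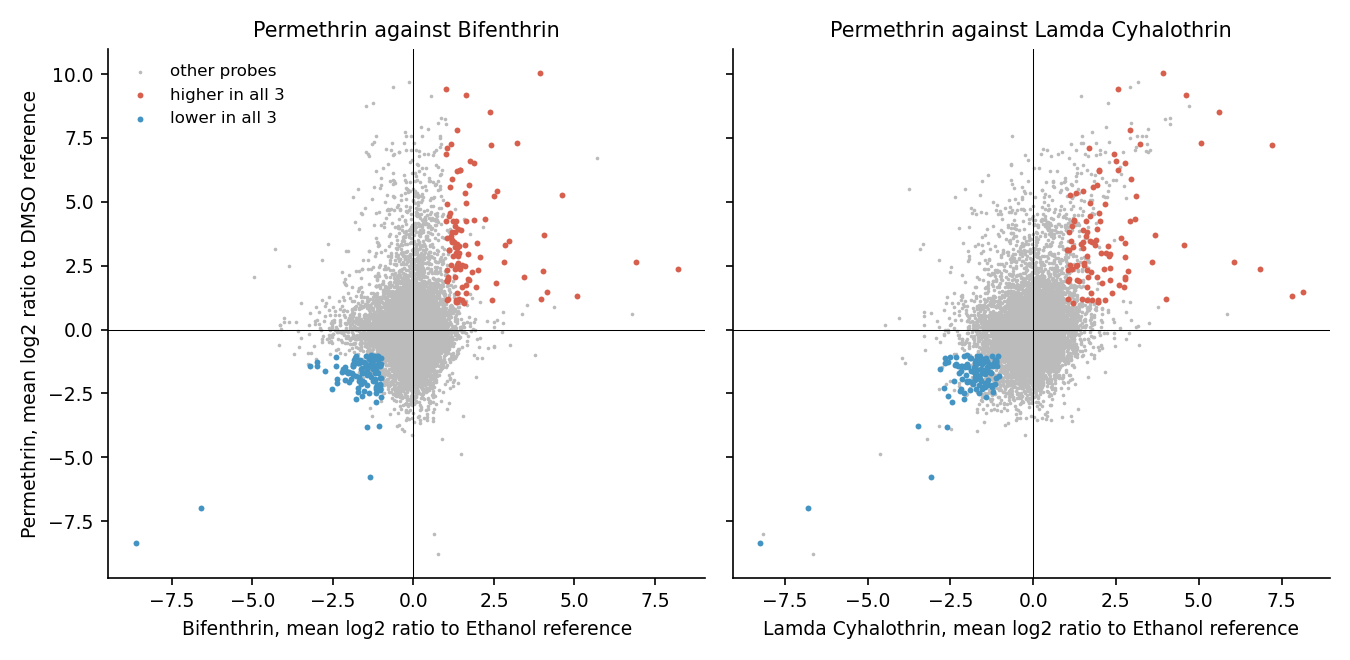
Mean log2 ratio of each of 13481 probes in Permethrin (vertical) against Bifenthrin (left panel) and Lamda Cyhalothrin (right panel), with the 102 probes higher and 113 lower in all 3 coloured. The cloud of Bifenthrin is upright, with a correlation of 0.09, and that of Lamda Cyhalothrin leans to the upper right, with a correlation of 0.31.

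The shared list was followed through the other chemicals. The 102 higher probes had a median ratio of 0.79 in Phenanthrene, where 38 were called higher (3.05% of all probes were) and 3 lower. In the 13 other Ethanol chemicals the median went from -0.02 in 2-chloro vinyl ether to 2.58 in Dichlorobenzene, where 84 of the 102 were called higher against 7.63% of all probes. Pyripoxyfen also had 84, against 4.77%. The 113 lower probes had a median of -0.88 in Phenanthrene, where 49 were called lower (4.21% of all probes were). Their median over the Ethanol chemicals went from 0.04 in 2-chloro vinyl ether to -1.80 in Dichlorobenzene, where 105 of the 113 were called lower against 9.04% of all probes. Beta-estradiol, a vertebrate hormone, had 98 of them, against 7.81%. The Ethanol chemicals share the reference of Bifenthrin and Lamda Cyhalothrin, so these values stand side by side and do not count as repeats.

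The compounds were then compared in pairs, with p-values adjusted over all probes and the 3 pairs together. Bifenthrin and Lamda Cyhalothrin, which have the acid side chain in common and differ in the alcohol part and its cyano group, were called different at 644 probes (4.78%), with 242 higher (1.8%) and 402 lower (2.98%) in Bifenthrin. This count was 1187 with the ratios quantile normalized. Permethrin differed from Bifenthrin at 4436 probes (32.9%), with 2439 higher in Permethrin (18.1%) and 1997 lower (14.8%). It differed from Lamda Cyhalothrin at 4058 probes (30.1%), with 2217 higher (16.4%) and 1841 lower (13.7%). The median size of the difference was 0.26 on the log2 scale between the Ethanol compounds, 0.69 between Permethrin and Bifenthrin and 0.65 between Permethrin and Lamda Cyhalothrin. The 95% interval of the difference, which reached a median of 0.34 to either side, lay wholly within 1 log2 unit of 0 for 9811 probes (72.8%) in the first pair. It did so for 5767 (42.8%) and 5939 (44.1%) in the pairs with Permethrin. The Ethanol reference cancels in the first pair. In the pairs with Permethrin, the compound and the vehicle cannot be told apart, since the compounds were given in different vehicles and against different references.

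The same pairs were read from scanner values, which hold no reference. Of the probes called higher and lower in Bifenthrin than in Lamda Cyhalothrin with a scanner value, 242 of 242 and 375 of 399 were called the same way. For Permethrin against Bifenthrin it was 1448 of 2427 higher and 1510 of 1989 lower probes, with 10 and 3 called the opposite way. For Permethrin against Lamda Cyhalothrin it was 1216 of 2212 and 1240 of 1834, with 9 and 6 opposite. The scanner values also turned the balance of the pairs with Permethrin: 43.2% of the calls against Bifenthrin and 43.8% of those against Lamda Cyhalothrin were higher in Permethrin, where the ratios gave 55.0% and 54.6%.

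The probes that set Bifenthrin apart from Lamda Cyhalothrin included a pair of very bright ones. DM04057 had ratios of 0.62, 0.64, 0.66 and 0.68 in Bifenthrin (0.65 ± 0.03), and -8.18, -8.12, -8.11 and -8.16 in Lamda Cyhalothrin (-8.14 ± 0.03). In Permethrin it stood at -8.04, -7.98, -8.13 and -7.92 (-8.02 ± 0.09). The difference of Bifenthrin from Lamda Cyhalothrin was 8.79 (95% interval 8.05 to 9.53, adjusted p = 7.3e-43), which is 444-fold. On ratios Permethrin and Lamda Cyhalothrin overlapped and differed by 0.12 (interval -0.62 to 0.86, adjusted p = 0.81). On scanner values Permethrin was called above Lamda Cyhalothrin at DM04057, by 1.73 (limma adjusted p = 1.5e-08). DM04057 was called lower than the vehicle in 9 of the 13 other Ethanol chemicals. Its scanner value was 14.20 in Bifenthrin and 15.20 in Phenanthrene, against 5.29 in Lamda Cyhalothrin and 7.02 in Permethrin.

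DM11644 also separated Bifenthrin from Lamda Cyhalothrin, with ratios of 0.75 ± 0.03, from 0.71 to 0.78, and -6.63 ± 0.07, from -6.68 to -6.53. It was lower still in Permethrin, at -8.78 ± 0.13, from -8.92 to -8.67. No compounds overlapped. The difference of Bifenthrin from Lamda Cyhalothrin was 7.39 (interval 6.94 to 7.83, adjusted p = 3.4e-56), and that of Permethrin from Bifenthrin -9.53 (interval -9.98 to -9.09, adjusted p = 6.3e-67). This probe was also called lower in 9 of the 13 other Ethanol chemicals, and Phenanthrene had a ratio of 0.26 ± 0.09.

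In the other direction, DM03350 had ratios of -0.45, -0.39, -0.47 and -0.43 in Bifenthrin (-0.44 ± 0.03). It had 3.53, 3.49, 3.45 and 3.38 in Lamda Cyhalothrin (3.46 ± 0.06), and 7.01, 6.90, 7.06 and 6.86 in Permethrin (6.96 ± 0.10). The compounds were well apart: Bifenthrin lay 3.90 below Lamda Cyhalothrin (interval -4.14 to -3.66, adjusted p = 3.6e-55), and Permethrin lay 3.5 above it (interval 3.25 to 3.74). On scanner values the latter difference was 1.86. The implied reference was 8.95 from the Permethrin arrays and 9.25 from Phenanthrene in DMSO, and 10.58 from Lamda Cyhalothrin in Ethanol. DM07418 had a ratio of -2.84 ± 0.07 in Bifenthrin, 0.76 ± 0.13 in Lamda Cyhalothrin and -0.35 ± 0.02 in Permethrin. The difference of Bifenthrin from Lamda Cyhalothrin was -3.60 (interval -3.83 to -3.37, adjusted p = 9.2e-54). DM07418 was called lower in 9 of the 13 other Ethanol chemicals.

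Of 2439 probes higher in Permethrin than in Bifenthrin, 1259 met the conditions for naming (above background and unsaturated on all 12 arrays, with a measurable reference), and among these the ratios differed most at DM10524. The ratios were -1.19, -1.14, -1.12 and -1.18 in Bifenthrin (-1.16 ± 0.04) and -0.69, -0.64, -0.65 and -0.62 in Lamda Cyhalothrin (-0.65 ± 0.03). Permethrin gave 7.51, 7.64, 7.50 and 7.62 (7.57 ± 0.07). Permethrin exceeded Bifenthrin by 8.72 (interval 8.16 to 9.28, adjusted p = 6.3e-54) and Lamda Cyhalothrin by 8.22 (interval 7.66 to 8.78, adjusted p = 1.9e-51). The implied reference was 4.90 in DMSO from the Permethrin arrays (5.41 from Phenanthrene) and 8.32 in Ethanol. On scanner values the differences were 5.30 and 4.78. The Permethrin arrays, with a scanner value of 12.47, lay above the highest of the 13 other Ethanol chemicals, Chloroform at 10.02, and 5.88 above Phenanthrene. DM08907 stood at -1.23 ± 0.06 in Bifenthrin, 2.30 ± 0.09 in Lamda Cyhalothrin and 7.33 ± 0.02 in Permethrin. The difference of Permethrin from Bifenthrin was 8.56 (interval 7.62 to 9.49, adjusted p = 3.5e-33) on ratios and 5.43 on scanner values. Toxaphene, an Ethanol chemical, had a higher scanner value at DM08907 (13.11) than Permethrin (12.06).

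Of 2217 probes higher in Permethrin than in Lamda Cyhalothrin, 1161 met the same conditions, and among these the ratios differed most at DM07427. The ratio of this probe was -1.73 ± 0.01 in Bifenthrin, from -1.74 to -1.71, and -3.76 ± 0.11 in Lamda Cyhalothrin, from -3.89 to -3.65. It was 5.50 ± 0.04 in Permethrin, from 5.45 to 5.55. The Ethanol compounds fell and Permethrin rose, with 9.25 between Permethrin and Lamda Cyhalothrin (interval 8.87 to 9.63, adjusted p = 3.7e-72) and 5.70 on scanner values. Trichloroethylene, at 14.31, had a higher scanner value at DM07427 than Permethrin at 11.28. At DM06262 the direction was the reverse. Its ratio was 6.79 ± 0.06 in Bifenthrin, 5.84 ± 0.03 in Lamda Cyhalothrin and 0.59 ± 0.04 in Permethrin, where it was not called against the vehicle (adjusted p = 0.26). Permethrin was 5.25 below Lamda Cyhalothrin (interval -6.57 to -3.93, adjusted p = 1.9e-11). DM06262 was called higher in 11 of the 13 other Ethanol chemicals, and its ratio in Phenanthrene was 3.71 ± 0.10.

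Probes of 1 compound were those called against the vehicle and also called different, in the same direction, from both other pyrethroids. There were 119 for Bifenthrin (0.883%), with 14 higher (0.104%) and 105 lower (0.779%). Lamda Cyhalothrin had 105 (0.779%), with 32 higher (0.237%) and 73 lower (0.542%). Permethrin had 2382 (17.7%), with 1279 higher (9.49%) and 1103 lower (8.18%). With the ratios quantile normalized, the counts were 267 for Bifenthrin (132 higher), 215 for Lamda Cyhalothrin (115 higher) and 1158 for Permethrin (577 higher). The other 2 compounds were not called against their vehicles at 2 of the 14 and 51 of the 105 Bifenthrin probes. For Lamda Cyhalothrin this held at 28 of the 32 and 23 of the 73, and for Permethrin at 891 of the 1279 and 1010 of the 1103. At the other probes a second compound was called too, in either direction. The vehicle mates gave the same direction at 7 of 14 higher and 78 of 104 lower probes of Bifenthrin, at 20 of 31 and 58 of 73 of Lamda Cyhalothrin and at 948 of 1275 and 889 of 1099 of Permethrin, where 6 of the higher probes went the opposite way. Of all probes, 1.53% were higher and 2.28% lower than the mates in Bifenthrin. The shares were 2.56% and 2.96% in Lamda Cyhalothrin and 11.2% and 14.8% in Permethrin. The same arrays had chosen the probes of 1 compound.

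In terms of structure, Lamda Cyhalothrin with its cyano group was called above both compounds without it at 57 probes (0.423%) and below both at 109 (0.809%). Of these, the compounds without the group differed by less than 1 log2 unit, over the whole 95% interval, at 27 and 14. The shares were 47.4% and 12.8%, against 42.8% of all probes. Bifenthrin with its biphenyl alcohol part was called above both phenoxybenzyl compounds at 112 probes (0.831%) and below both at 286 (2.12%). The phenoxybenzyl compounds lay within 1 log2 unit of each other at 32 and 54 of these. That was 28.6% and 18.9%, against 44.1% of all probes. Permethrin with its dichlorovinyl acid part was called above both others at 1862 (13.8%) and below both at 1453 (10.8%), with 1077 and 1090 at which the others lay within 1 log2 unit. The vehicle sets Permethrin apart in the same way as the acid part does, and the 2 cannot be told apart. Every count for Bifenthrin and Lamda Cyhalothrin also needed a call against Permethrin, in another vehicle and against another reference. Each of these parts was carried by 1 compound alone, so the counts describe compounds and cannot be assigned to a part.

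Among the Bifenthrin probes, the 105 lower ones had a median ratio of -1.83 in Bifenthrin, -0.08 in Lamda Cyhalothrin and 0.46 in Permethrin. In Beta-estradiol, which shares the Ethanol reference, their median was -1.82 and 89 of the 105 were called lower, against 7.81% of all probes. In Phenanthrene it was -1.01, with 53 called lower, against 4.21%. DM03029 had ratios of -5.04, -4.83, -5.00 and -4.97 in Bifenthrin (-4.96 ± 0.09), -1.71 ± 0.04 in Lamda Cyhalothrin and 2.04 ± 0.04 in Permethrin. Bifenthrin was 3.25 below Lamda Cyhalothrin (interval -4.16 to -2.34, adjusted p = 7.6e-10). DM03029 was lower still in Beta-estradiol, at a scanner value of 3.75 beside 5.49 in Bifenthrin.

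DM11146 had ratios of -4.09, -4.07, -4.31 and -4.19 in Bifenthrin (-4.16 ± 0.11, adjusted p = 4e-24). In Lamda Cyhalothrin they were scattered, at -1.52, -0.52, -0.82 and -0.23, and in Permethrin they were -0.38, -0.81, -0.84 and -0.39. Bifenthrin was below every array of the other pyrethroids. In Phenanthrene this probe was not well above background on any array, and Permethrin was at least 159-fold higher (scanner means 11.06 and 2.50, adjusted p = 1.9e-37). This bound sets Phenanthrene at the highest signal, on each array, of a probe not above background. Permethrin was not called against the vehicle here (-0.61 ± 0.25, limma adjusted p = 0.062), whereas Phenanthrene had a ratio of -9.44 on undetected signal. DM11146 was called lower in 7 and higher in 3 of the 13 other Ethanol chemicals. Its scanner value was a dim 2.37 in Methoxychlor, below the 7.30 of Bifenthrin.

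Of the higher Bifenthrin probes, DM12385 had ratios of 3.4, 3.39, 3.64 and 3.68 (3.53 ± 0.16, adjusted p = 6.7e-30), against 1.71 ± 0.08 in Lamda Cyhalothrin. In Permethrin it stood at 0.81, 0.64, 0.71 and 1.76, the last array apart from the other 3. DM12385 was called higher in 9 of the 13 other Ethanol chemicals and reached a scanner value of 10.60 in Pyripoxyfen beside 9.64 in Bifenthrin. DM04454 was higher in Bifenthrin by 1.49 ± 0.06 and lower in Lamda Cyhalothrin and Permethrin, at -4.62 ± 0.08 and -4.85 ± 0.05. Bifenthrin exceeded Lamda Cyhalothrin by 6.11 (interval 5.08 to 7.13, adjusted p = 4.2e-20), and Beta-estradiol, at a scanner value of 10.87, was close to Bifenthrin at 11.18.

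Among the Lamda Cyhalothrin probes, the 32 higher ones had a median ratio of 1.54 in this compound, 0.13 in Bifenthrin and 0.04 in Permethrin. The 13 other Ethanol chemicals had medians from -0.30 in Chloroform to 0.84 in Beta-benzene hexachloride, and between 3 and 14 of the 32 were called higher in them, where 1.02% to 11% of all probes were. The 73 lower probes had a median of -1.58 in Lamda Cyhalothrin, -0.11 in Bifenthrin and 1.53 in Permethrin. In Permethrin 46 of them were called higher, against 13.2% of all probes. The rule for this list asked for Permethrin to be called above Lamda Cyhalothrin, so high Permethrin ratios are partly built in. The median of the 73 in the other Ethanol chemicals went from -0.66 in Bis2-ethylhexyl phthalate to 0.52 in Trichloroethylene. DM05878, described above, came first among the higher probes that could be named, although it rose in all 3 compounds, since the rule asks for a difference and not for a lack of change in the others.

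DM06825 had ratios of 2.05, 2.10, 2.05 and 2.06 in Lamda Cyhalothrin (2.06 ± 0.03, adjusted p = 3.2e-37). Bifenthrin stood at 0.13 ± 0.03 and Permethrin at 0.30 ± 0.03, and the difference between these was 0.17 (interval -0.12 to 0.45). The cyano compound lay 1.93 above Bifenthrin (interval of the reverse difference -2.21 to -1.65) and 1.77 above Permethrin. Of the 13 other Ethanol chemicals, 1 was called higher and 3 lower at DM06825, and Beta-benzene hexachloride had a scanner value of 13.11 beside 12.86 in Lamda Cyhalothrin. DM07108 had ratios of -3.89, -3.96, -3.96 and -3.96 in Lamda Cyhalothrin (-3.94 ± 0.03, adjusted p = 7.3e-23), 0.16 ± 0.04 in Bifenthrin and -1.11 ± 0.04 in Permethrin. DM07343 had -3.96, -3.95, -3.81 and -3.78 (-3.87 ± 0.09, adjusted p = 5.6e-29), against -0.32 ± 0.07 and -1.31 ± 0.06. At DM07108 the scanner value of Lamda Cyhalothrin, 8.74, lay below the lowest of the 13 other Ethanol chemicals, 11.16 in Nonylphenol. At DM07343 it was 10.05, and the lowest of the others was 12.11 in Dichlorobenzene. Both probes thus set Lamda Cyhalothrin apart from every other chemical in Ethanol, by 4.36 and 3.91 from their mean, with adjusted p-values of 2.7e-22 and 3.1e-25. They had been chosen for low ratios on the same Lamda Cyhalothrin arrays, so the p-values against these chemicals are not independent of that choice.

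Among the Permethrin probes, the 1279 higher ones had a median ratio of 2.17 in Permethrin, -0.07 in Bifenthrin and 0.01 in Lamda Cyhalothrin, and 0.18 in Phenanthrene. Dichlorobenzene had the highest median of the 13 Ethanol chemicals, 0.64, with 476 of the 1279 called higher against 7.63% of all probes. The 1103 lower probes had a median of -1.60 in Permethrin, 0.15 in Bifenthrin, 0.02 in Lamda Cyhalothrin and -0.12 in Phenanthrene. DM10524, described above, was the first of the higher probes that could be named. DM02485 had ratios of 6.89, 6.76, 6.87 and 6.77 (6.82 ± 0.07, adjusted p = 1.3e-77), against -0.64 ± 0.01 in Bifenthrin and -0.23 ± 0.07 in Lamda Cyhalothrin. The implied reference was 7.97 in DMSO from the Permethrin arrays (8.38 from Phenanthrene) and 11.02 in Ethanol. The distance of Permethrin from Bifenthrin, 7.46 on ratios, was 4.42 on scanner values. At 14.79 the scanner value exceeded all 13 other Ethanol chemicals, of which Dichlorobenzene had the highest at 12.79, and it was 5.21 above Phenanthrene.

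DM11829 had ratios of -3.60, -2.66, -3.75 and -3.69 in Permethrin (-3.42 ± 0.52, adjusted p = 1.9e-13). It stood at 0.13 ± 0.06 in Bifenthrin, 0.02 ± 0.04 in Lamda Cyhalothrin and -1.51 ± 0.12 in Phenanthrene. The array at -2.66 is Permethrin replicate 2, the one with fewer probes above background, whose part in this value was not tested. DM03591 had -3.56, -3.47, -3.26 and -3.71 in Permethrin (-3.50 ± 0.19, adjusted p = 1.7e-35), against -0.15 ± 0.08, 0.40 ± 0.06 and -1.39 ± 0.17 in Bifenthrin, Lamda Cyhalothrin and Phenanthrene. Both fell in Phenanthrene as well, by less, and Permethrin lay 2.09 and 2.29 below it. Chloroform had lower scanner values than Permethrin at both, 3.81 against 5.67 at DM11829 and 3.95 against 5.56 at DM03591. DM03591 was called lower in 4 of the 13 other Ethanol chemicals and DM11829 in 1.

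**Figure D4:**
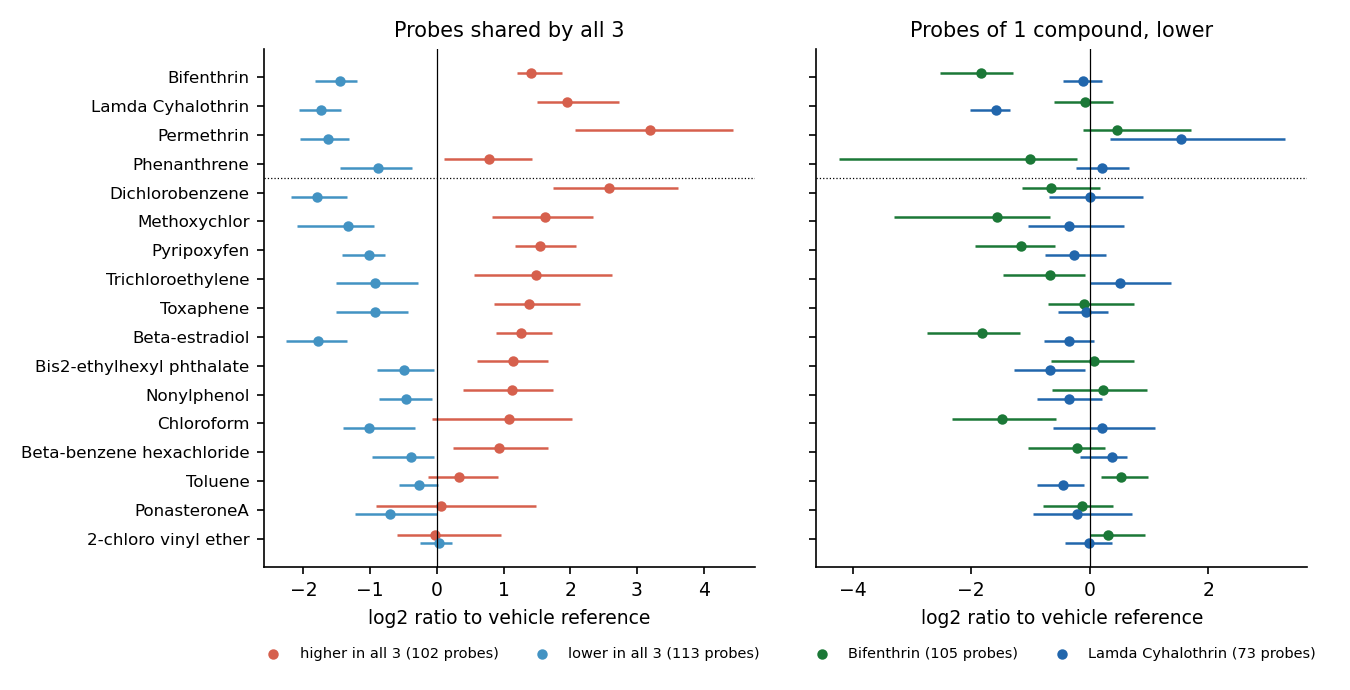
Median (points) and quartiles (lines) of the log2 ratios to the vehicle reference for the 102 probes higher and 113 lower in all 3 pyrethroids (left panel), and for the 105 lower probes of Bifenthrin and 73 lower probes of Lamda Cyhalothrin (right panel), in the pyrethroids, Phenanthrene and the 13 other Ethanol chemicals. The shared lists reach 2.58 and -1.80 in Dichlorobenzene, and the lower Bifenthrin probes -1.82 in Beta-estradiol.

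Last, the distance over all 14276 probes was taken as the root mean square difference of group means on scanner values. Bifenthrin lay nearest to Beta-estradiol (0.443), then to Pyripoxyfen (0.529), a juvenile hormone analog used against insects, and to Lamda Cyhalothrin (0.608). All 4 Bifenthrin arrays were nearest to Beta-estradiol when taken 1 at a time, at 0.568 to 0.607. Lamda Cyhalothrin lay nearest to Bis2-ethylhexyl phthalate (0.599), a plasticiser, with Bifenthrin (0.608) and Pyripoxyfen (0.618) close behind. Of its 4 arrays, replicate 1 was nearest to Bifenthrin and the others to Bis2-ethylhexyl phthalate, by small margins. Permethrin was the farthest of the 35 other chemicals from Bifenthrin (1.31), and Permethrin and Nickel were level as the farthest from Lamda Cyhalothrin (both 1.19). Its own nearest neighbours were Parathion (0.867), an organophosphate insecticide of the Acetone control, and Chromium (0.883), and each of its 4 arrays was nearest to Parathion. Phenanthrene, in the same vehicle, stood at rank 28 of 35 from Permethrin (1.29). Pairs of replicate arrays differed by 0.516 to 0.759, and a distance between group means carries less of this noise than a distance between arrays. These distances are a description, with no test, and whether chemicals of a vehicle were handled together is not given.

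**Figure D5:**
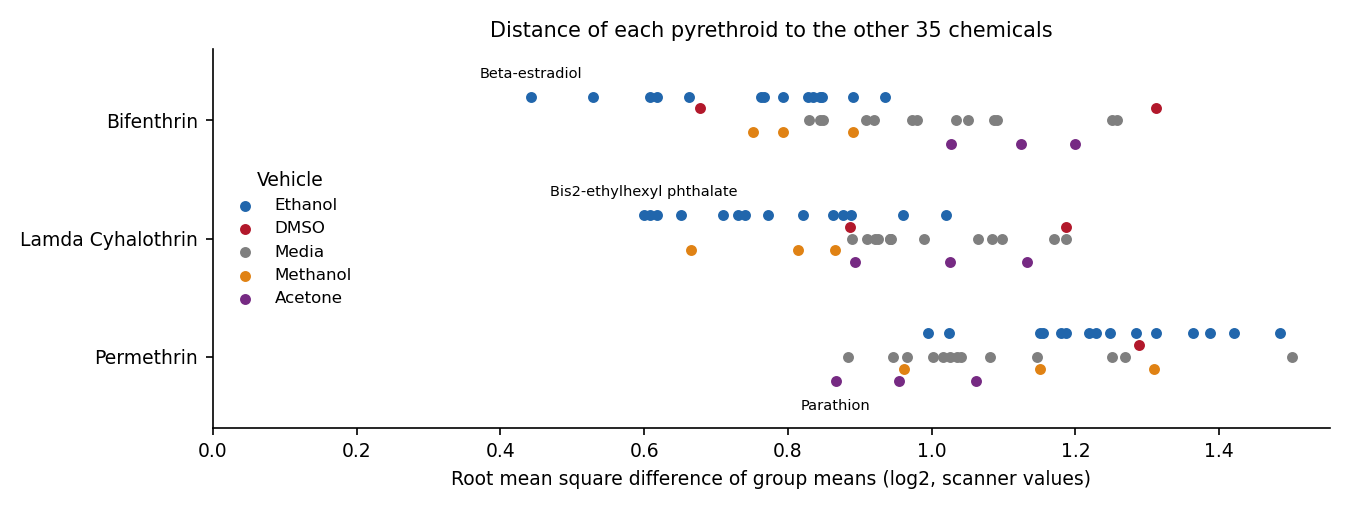
Root mean square difference of group means on the log2 scale of scanner values, from each pyrethroid (rows) to the other 35 chemicals (points, coloured by vehicle). The Ethanol compounds have their smallest distances, from 0.443 and 0.599, to chemicals in Ethanol, while those of Permethrin start at 0.867.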

How the data were processed

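Gene expression was measured on 1-colour arrays of whole Daphnia magna, 4 per chemical, grouped by the chemical in the labels. The scanner intensities (foreground and local background) and the spot flags, a score of the scanner software, were deposited by the authors without normalization, per the file headers. The authors also deposited log2 ratios, in which every array is set against its vehicle's reference. The submitters' processing notes name limma, and how the reference was made is not given in the sources used here. Each array's ratios were best matched by its own scanner values for 144 of 144 arrays. The 20 control arrays in the scanner tables match no labelled sample and were not used, so the deposited reference stands for the control and its own spread is left out.

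For scanner values, local background was subtracted with a floor of 1, log2 was taken and the 144 arrays were quantile normalized. Control spots and 62 probes with a bad unsaturated spot were left out, and spots of a probe were averaged. A probe was above background where its signal was more than 3 SD over the mean signal of the 77 negative control spots. limma 3.58.1 in R 4.3.3 fitted 36 group means to all 144 arrays (108 residual degrees of freedom, eBayes with trend). P-values were adjusted by Benjamini-Hochberg over all probes, and for pairs over the 3 pairs together. The test was tried on simulated data first. Python 3.11.15, numpy 2.4.6, pandas 2.3.3 and matplotlib 3.10.9 made the summaries and plots.

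For each list, up to 2 rising and 2 falling probes were named: those above background and unsaturated on all 12 pyrethroid arrays, with an implied reference above the lowest signal detected, ranked by the smallest change over the tests that make the list. The compounds, lists and tests were chosen with earlier results of these data known. The 4 arrays per group limit the precision. Nothing says that replicates came from separate cultures, so p-values measure the spread between these samples, which may be technical. Alternatives were the size limit, scaling, background correction, source of the values, a filter on dim probes, the arrays in the fit, the variance trend, a replicate block and leaving out each array.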

Additional observations from a re-analysis of the deposited data

Results flagged for a closer look

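Of 87 groups of 4 arrays examined, 8 had 1 array standing apart from the other 3 by Dixon's criterion, and chance flags about 1 group in 20. At DM12385, Permethrin replicate 4 had a log2 ratio of 1.76, and the other 3 arrays lay between 0.64 and 0.81. At DM11829, Permethrin replicate 2 had a ratio of -2.66 against -3.75 to -3.60. The same array, Permethrin replicate 2, had 62.4% of its probes above background against 74.2% to 75.5%. At DM11829 in Lamda Cyhalothrin, replicate 2 stood at -0.045 against 0.03 to 0.04.

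The remaining gaps were about 0.1 or less on the log2 scale. At DM05269 in Bifenthrin, replicate 2 had -6.64 against -6.58 to -6.57. At DM08907 in Bifenthrin, replicate 3 had -1.32 against -1.21 to -1.19. At DM07427 in Bifenthrin, replicate 4 had -1.71 against -1.74 to -1.73. At DM07108 in Lamda Cyhalothrin, replicate 1 had -3.89 against -3.96 on the other arrays.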

How the results depend on the processing

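Of the recomputed counts, 177 stayed within 1.5 times the reported count and 25 did not. Of the recomputed values of single probes, 724 kept their call, 5 lost it and none reversed. With the adjusted p alone and no minimum change, the counts against the vehicle were 6499 for Bifenthrin, 7516 for Lamda Cyhalothrin, 9484 for Permethrin and 1746 shared. The pairs then had 4032 (Bifenthrin and Lamda Cyhalothrin), 8892 (Permethrin and Bifenthrin) and 8656 (Permethrin and Lamda Cyhalothrin). The probes of 1 compound were 1153, 1378 and 6350, and against vehicle mates the counts were 4518, 5323, 8096 and 566 shared. With ratios quantile normalized, the counts against the vehicle were 2360, 2396 and 2367, Bifenthrin and Lamda Cyhalothrin differed at 1187 probes, and the probes of 1 compound were 267, 215 and 1158. This setting gives all arrays the same spread. It also moved the share of higher calls from 47.4% to 64.7% in the shared list, from 11.8% to 49.4% for Bifenthrin probes and from 30.5% to 53.5% for Lamda Cyhalothrin probes. Centring arrays on their median moved that share against mates from 46.3% to 34.5% in Lamda Cyhalothrin and from 70.0% to 59.0% in the shared list. With normexp, the counts against mates fell to 136, 274, 1671 and 9 shared, and the cause was not tested.

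Leaving out 1 array at a time gave 1200 to 1243 calls for Bifenthrin, 1526 to 1594 for Lamda Cyhalothrin, 3632 to 3661 for Permethrin and 209 to 221 shared against the vehicle. Arrays of the same replicate number did not deviate together (correlations of -0.22 to 0.16, best with their own number in 1 of 12 pairs), so the numbers pair nothing. With the replicate block the counts were 1224, 1568, 3613 and 215 against the vehicle, 645, 4439 and 4056 in pairs, 121, 104 and 2381 for 1 compound, and 543, 788, 3709 and 40 against mates. Slide as a block was not run, since no slides are given. Of all probes, 60.6% were above background on all 12 arrays, which limits what dim probes can show.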
